A study of Homo sapiens with 40 samples.

Results

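The early RNA response of BT474R to epidermal growth factor (EGF) was described from 4 of the 40 libraries of the series, the 2 libraries of BT474R treated with EGF for 1 h and the 2 libraries of BT474R treated with vehicle for 1 h, over all genes of the deposited table. BT474 is a HER2-positive luminal breast carcinoma cell line that is sensitive to trastuzumab, an antibody against HER2. BT474R is a derivative of it that was grown in trastuzumab at 10 μg/mL and is 1 clone, so what distinguishes it from BT474 may belong to that clone. Cells of both lines were starved for 14 to 16 h in medium with 0.1% serum, and one set was taken at that point (T0). The others received EGF at 50 ng/mL, heregulin (HRG) at 10 ng/mL or water (vehicle) in fresh starvation medium, and were collected 1 h, 12 h or 24 h later, which with both lines gave 20 groups of 2 libraries. Starvation and the change of medium were therefore common to the EGF and the vehicle libraries. The methods state that each treatment was done in duplicate, and the labels tell duplicates apart by number alone. Whether duplicates were independent experiments is not given, so that p-values measure the spread between libraries, which may be technical. That spread was estimated over all libraries of a fit.

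EGF binds EGFR (HER1), which then pairs with itself or with HER2 and signals through RAS and the MAP kinase ERK and through PI3K and AKT, whereas HRG binds HER3 and HER4. Within minutes ERK and its kinase partners act on transcription factors already present in the cell, such as SRF with its ternary complex partners, and a set of genes is transcribed without any new protein being needed. These immediate-early genes encode transcription factors (EGR, FOS and JUN families), and they are followed by genes for feedback inhibitors such as the MAP kinase phosphatases and the Sprouty proteins, and for secreted ligands.

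The 4 libraries held between 24028440 and 33387936 counts, and 3 counts, taken as the detection limit, were at most 0.125 CPM, the scaled counts of a gene per 1000000 counts of its library. Their top 50 genes took 13.1% to 13.3% of the counts, and replicates differed by more than sampling noise. The labelled cell type was checked against its markers. All 10 luminal HER2-positive markers were detected in sums of 15942 to 16418 CPM. Basal markers summed to 2.91 to 4.73 CPM, endothelial markers to 17.4 to 18.8 CPM and immune markers to 1.30 to 2.17 CPM, and KRT14, ACTA2, PECAM1, TEK, PTPRC, CD3E and CD14 were at the detection limit in all 4 libraries. Of the endothelial markers VWF (10.4 to 11.7 CPM) and CDH5 (5.88 to 7.38 CPM) were detected. Fibroblast markers summed to 164 to 192 CPM, of which COL1A1 made up 163 to 192 CPM, with DCN, LUM and PDGFRB at the limit. Of the 15 markers outside the luminal list that were tested, 0 were called in edgeR, 1 had an unadjusted p under 0.05 and 0 were called in DESeq2. Neither the strand setting nor the treatment of multi-mapping reads is given in the sources used here, so that reads of overlapping or antisense genes and of near-identical copies cannot be told apart.

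After 1 h of EGF, 101 of 24287 genes tested (0.416%) were higher than with vehicle and 10 (0.0412%) were lower, at an adjusted p under 0.05 in edgeR's quasi-likelihood F test. The genes that rose were led by transcription factors, with EGR2, EGR3, EGR1, FOS, EGR4, NR4A3 and FOSB among those with the largest changes, together with CXCL8, CCN2, RASD1, IRF1 and the EGFR ligand HBEGF. Changes were small for most: the median log2 fold change of the 101 genes was 0.75, in a range from 0.22 to 6.84, with 31 genes at 1 or more, 13 at 2 or more and 30 under 0.5. The 10 genes that fell had a median of -0.57, and the median over all genes tested was -0.0028. All 111 called genes (0.457%) had EGF and vehicle libraries that did not overlap, as did 38.9% of all genes. Of the 101 rows, 10 repeat the name of another gene with a number, leaving 91 genes. At an unadjusted p under 0.05, 739 genes were higher and 633 lower. The number of calls depended on which libraries set the spread: it was 157 higher and 20 lower without the HRG libraries at 24 h, which differed most between replicates, 234 and 45 with only the 4 libraries compared, and 60 to 68 higher and 2 to 6 lower when 1 of the 4 libraries was left out. DESeq2 called 112 and 9. Whether fewer responding cells or less RNA per cell lies behind a level cannot be told apart in bulk RNA.

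**Figure D1:**
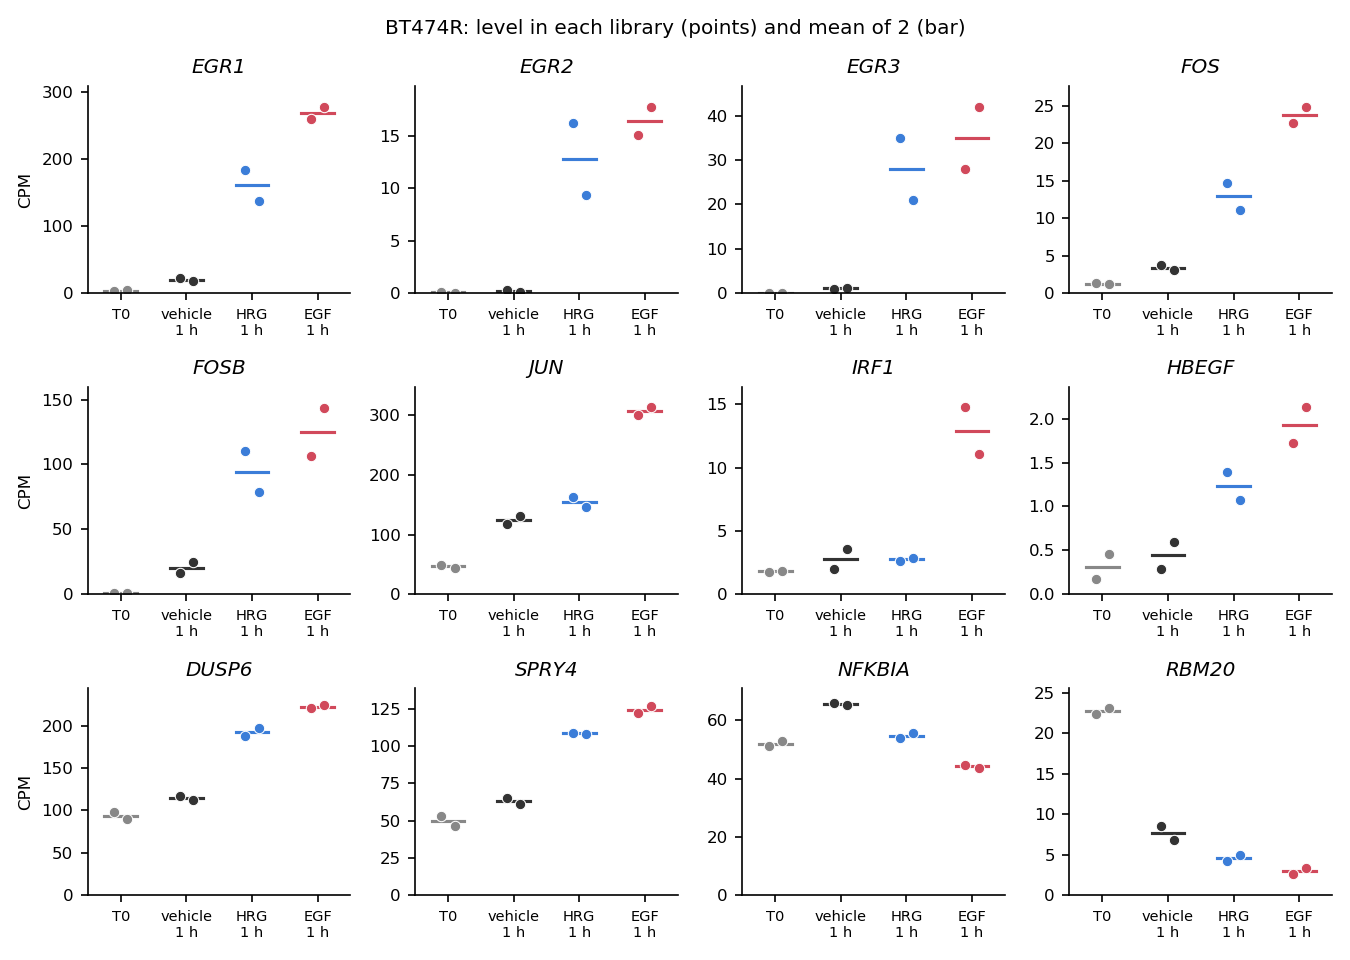
Levels in CPM (vertical axis of each panel, starting at 0) of 12 genes in the 2 BT474R libraries (points) of T0, vehicle at 1 h, HRG at 1 h and EGF at 1 h, with the mean of 2 as a bar. The EGF libraries lie above the vehicle libraries in the first 10 panels and below them for NFKBIA and RBM20. For IRF1 the HRG libraries lie within the range of the vehicle libraries.

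The plot of levels by library shows 12 of the genes described next. The genes were grouped into 24 lists of 227 genes, of which 213 were tested. Of these, 47 rose and 3 fell (MYCN, NFKBIA and MAP3K8), and 20 of the 24 lists held at least 1 gene that rose.

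The EGR list had the highest median of the 24 lists, with 5 of 6 members higher, 0 lower and a median log2 fold change of 3.26. EGR1, a zinc-finger transcription factor, stood at 3.01 and 3.97 CPM at T0 and 22 and 17.7 CPM with vehicle, and at 260.1 and 278 CPM with EGF. Both EGF libraries lay above both vehicle libraries, with a log2 fold change of 3.77 (SE 0.14, adjusted p = 9.95e-14). EGR2 was barely detected with vehicle, at 0.246 and 0.0597 CPM, and reached 15.1 and 17.7 CPM with EGF, the largest change of any gene called (6.84, SE 0.36, adjusted p = 9.38e-11). EGR3 was without a count in the 2 T0 libraries and stood at 0.902 and 1.19 CPM with vehicle and 28 and 42 CPM with EGF (5.03, SE 0.29). Its EGF replicates were further apart than those of EGR1 or EGR2, and still lay far above both vehicle libraries. EGR4 went from 1.11 and 1.28 CPM to 6.95 and 9.35 CPM (2.75, SE 0.26). Of the corepressors that bind EGR proteins, NAB2 rose from 12.3 and 10.3 CPM to 17.3 and 19.8 CPM (0.73, adjusted p = 0.00177), while NAB1 had 8.85 and 8.5 CPM with vehicle and 9.01 and 8.87 CPM with EGF (0.05, SE 0.12). The call of NAB2 was lost without EGF replicate 2 (adjusted p = 0.0753) and without vehicle replicate 2 (adjusted p = 0.125).

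Of the AP-1 factors, which bind DNA as pairs of a FOS and a JUN protein, 6 of 8 rose and 0 fell, with a list median of 1.54. FOS stood at 3.69 and 3.13 CPM with vehicle and 22.8 and 24.9 CPM with EGF (2.82, SE 0.25, adjusted p = 2.58e-07). FOSB, a close relative, was at 0.522 and 0.496 CPM at T0 and 16.4 and 24.4 CPM with vehicle, and reached 106 and 144 CPM with EGF (2.598, SE 0.16). For both genes the lowest EGF library was more than 4 times the highest vehicle library, a gap wider than either pair of replicates. FOSL1, a FOS relative tied to invasive growth, was at 1.56 and 2.03 CPM and 5.56 and 6.35 CPM (1.71, SE 0.24). JUN, the main partner of the FOS proteins, went from 118 and 131 CPM to 301 and 315 CPM (1.30, SE 0.08, adjusted p = 5.34e-10), JUNB from 87.9 and 92.5 CPM to 217 and 247 CPM (1.36), and ATF3, a stress-inducible partner of JUN, from 10.5 and 13.7 CPM to 48.1 and 52.8 CPM (2.04). The 2 members that did not pass were FOSL2 (0.27, adjusted p = 0.575) and JUND (0.27, adjusted p = 0.46).

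The orphan nuclear receptors of the NR4A family, which act without a known ligand and are induced by many stimuli, all rose. NR4A1 stood at 73.8 and 81 CPM with vehicle and 200.1 and 231 CPM with EGF (1.48, SE 0.12), NR4A2 at 20.5 and 21.5 CPM and 39.9 and 43.1 CPM (0.98, SE 0.08), and NR4A3 at 0.656 and 0.507 CPM and 3.68 and 5.01 CPM (2.91, SE 0.36). Of the IER genes in the same list, IER2 (1.01) and IER3 (1.22) rose, which made 5 of 7 with a list median of 1.01. IER3 has 5 further rows under its name with a number, all called higher, and its reads may be split among them. Among the Krüppel-like factors 2 of 7 rose: KLF2 went from 48.3 and 49 CPM to 98.6 and 103 CPM (1.05, SE 0.09) and KLF6 from 129 and 142 CPM to 262 and 267 CPM (0.97, SE 0.07). Outside the lists, MAFF, a small MAF protein that pairs with other basic leucine-zipper factors, rose from 20.7 and 20.9 CPM to 44.1 and 49.7 CPM (1.17), and NCOA7, a nuclear receptor coactivator, from 7.745 and 10.02 CPM to 22.9 and 22.2 CPM (1.33).

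In the MYC network 2 of 10 members rose and 1 fell, with a list median of 0.05. MYC stood at 8.81 and 7.4 CPM with vehicle and 15.4 and 15.1 CPM with EGF (0.92, SE 0.15, adjusted p = 0.002), and its call was lost without vehicle replicate 2 (adjusted p = 0.121). MXD1, which competes with MYC for the partner MAX, went from 20.2 and 19.8 CPM to 33.3 and 33.8 CPM (0.74, adjusted p = 0.000138). MYCN, the neural relative of MYC, went the other way, from 11.5 and 11.9 CPM to 7.74 and 8.05 CPM (-0.57, SE 0.12, adjusted p = 0.0317). The EGF and vehicle libraries did not overlap for any of the 3 genes, as for all 111 called genes and 38.9% of all genes.

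Serum response factor itself (SRF) rose slightly, from 65 and 67.7 CPM to 86.1 and 87 CPM (0.38, SE 0.07, adjusted p = 0.00619), and was the 1 member of 10 tested in its list that edgeR called, where DESeq2 called 2 and 5 were higher at an unadjusted p under 0.05. Of its cytoskeletal targets in the list, ACTB (0.13, adjusted p = 0.355), ACTG1 (0.18, adjusted p = 0.063) and VCL (-0.01, adjusted p = 0.995) did not pass. The call of SRF was lost without either EGF library or without vehicle replicate 1. Outside the list, the actin gene ACTG2 was called higher near the threshold (1.64, SE 0.37, edgeR adjusted p = 0.0476). It was at 0.205 and 0.656 CPM with vehicle and 1.46 and 1.42 CPM with EGF, and was named after its values were seen. Of the CCN and YAP targets 3 of 8 rose. CCN2, a secreted matrix-associated protein, went from 0.123 and 0.328 CPM to 3.53 and 3.23 CPM (3.79, SE 0.42, adjusted p = 2.76e-05), CCN1 from 22.7 and 23.4 CPM to 44.36 and 50.05 CPM (1.03, SE 0.10), and AMOTL2, a junction-associated angiomotin, from 31.3 and 30.8 CPM to 46.3 and 48 CPM (0.60, lost without vehicle replicate 2 at an adjusted p of 0.0544). The EGF and vehicle libraries of the 3 genes did not overlap, as for all 111 called genes and 38.9% of all genes.

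The promoters of the genes that rose were searched for the sites of transcription factors that act downstream of receptor tyrosine kinases, since these genes moved together within 1 h. Of the 91 genes, 76 matched the RefSeq table of GRCh38.p14 by symbol, as did 15109 of 22343 tested genes that are not copies, and the 250 bases before the start were searched on both strands. A CArG box, the site of SRF, was in 4 of the 76 (5.26%) and in 1.04% of all promoters searched. The cyclic AMP response element TGACGTCA was in 9 (11.8%) and in 2.46% of all, and the EGR site GCGNGGGCG in 13 (17.1%) and in 12.0% of all. The AP-1 site TGANTCA was in 1 (1.32%), that of CXCL8, and in 4.84% of all. The gamma-activated site TTCNNNGAA was added after the values were seen and was in 3 (3.95%) and in 5.69% of all. No sites of different motifs overlapped in the promoters of called genes. These are matches of letters and do not show binding. The 4 genes with a CArG box were EGR1, SRF, ACTG2 and FAM53C, which were chosen by the match. The promoters of EGR1 and SRF are shown with their CArG boxes in capitals, that of DUSP1 with its cyclic AMP response element in capitals and that of IRF1 with its gamma-activated site in capitals, each 5′ to 3′ on the strand of the gene; the 4 were chosen after the values were seen.
EGR1 (chr5:138465229-138465478, plus strand): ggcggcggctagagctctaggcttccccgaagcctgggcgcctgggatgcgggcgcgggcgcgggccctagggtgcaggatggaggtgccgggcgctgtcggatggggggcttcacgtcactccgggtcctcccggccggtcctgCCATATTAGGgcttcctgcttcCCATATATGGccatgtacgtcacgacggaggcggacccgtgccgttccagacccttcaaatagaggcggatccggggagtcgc
SRF (chr6:43171019-43171268, plus strand): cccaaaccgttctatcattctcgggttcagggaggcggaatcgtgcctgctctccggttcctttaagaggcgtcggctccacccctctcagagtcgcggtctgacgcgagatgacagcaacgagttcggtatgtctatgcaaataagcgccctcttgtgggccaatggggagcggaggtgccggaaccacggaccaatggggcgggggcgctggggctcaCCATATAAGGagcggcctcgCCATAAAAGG
DUSP1 (chr5:172771196-172771445, minus strand): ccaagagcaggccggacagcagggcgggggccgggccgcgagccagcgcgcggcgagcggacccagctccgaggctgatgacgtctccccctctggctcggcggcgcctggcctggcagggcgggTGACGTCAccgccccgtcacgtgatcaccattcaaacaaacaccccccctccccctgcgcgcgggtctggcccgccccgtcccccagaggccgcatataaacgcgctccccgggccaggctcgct
IRF1 (chr5:132490774-132491023, minus strand): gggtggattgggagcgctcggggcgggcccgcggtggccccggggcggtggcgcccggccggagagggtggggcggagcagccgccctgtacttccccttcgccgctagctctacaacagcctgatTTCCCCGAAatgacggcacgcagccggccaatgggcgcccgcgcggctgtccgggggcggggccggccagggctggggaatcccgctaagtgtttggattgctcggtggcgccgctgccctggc
EGR1 and SRF each held 2 CArG boxes in these windows, and the 2 genes differed widely in their change, by 3.77 for EGR1 and by 0.38 for SRF on the log2 scale. The gamma-activated site of IRF1 was also in the promoter of EGR1, where it is in lower case. EGR1, SRF and IRF1 also held an EGR site each, left in lower case.

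Feedback inhibitors of the pathway had smaller list medians than the EGR and AP-1 factors. Of the MAP kinase phosphatases, which remove the activating phosphates from ERK, JNK or p38, 6 of 10 rose and 0 fell, with a list median of 0.33. DUSP6, a cytoplasmic phosphatase of ERK, stood at 116 and 112 CPM with vehicle and 221 and 224 CPM with EGF (0.96, SE 0.10, adjusted p = 4.39e-06). DUSP1, a nuclear phosphatase, went from 40.7 and 44.6 CPM to 86.2 and 89.8 CPM (1.04, SE 0.12), and DUSP10, which acts on JNK and p38, from 44 and 49.8 CPM to 87.1 and 84.2 CPM (0.87, SE 0.08). The other 3 calls were small: DUSP4 had a log2 fold change of 0.29, DUSP5 of 0.38 and DUSP8 of 0.53, and each of them was lost when some of the 4 libraries were left out (adjusted p of up to 0.286, 0.234 and 0.388). DUSP8 also has another row under its name, and DUSP7 had 16.8 and 15.6 CPM and 13.4 and 13 CPM (-0.29, adjusted p = 0.327).

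Of 10 genes for feedback on receptor tyrosine kinases 2 rose. SPRY4, a Sprouty protein that restrains RAS signalling, went from 65.2 and 61.3 CPM to 122 and 127 CPM (0.98, SE 0.10, adjusted p = 1.12e-06), and ERRFI1, which binds EGFR and HER2 and blocks their kinases, from 43.3 and 47.1 CPM to 76.7 and 75.3 CPM (0.75, SE 0.08, adjusted p = 5.64e-06). SPRY1 (0.04), SPRY2 (0.22), SPRED1 (0.16) and SPRED2 (0.21, adjusted p = 0.162) did not pass. The receptors gave 0 calls of 4 in edgeR and in DESeq2, and 0 had an unadjusted p under 0.05: ERBB2 was at 9589 and 9704 CPM with vehicle and 9667 and 9588 CPM with EGF (-0.0028, SE 0.05) and EGFR at 674 and 717 CPM and 755 and 663 CPM (0.03, SE 0.09). Of 15 genes of the RAS and MAP kinase cascade none rose in edgeR or DESeq2, 0 were higher at an unadjusted p under 0.05, and MAP3K8, a kinase upstream of MEK, fell.

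Of 9 ERBB ligand genes tested, HBEGF, which binds EGFR and HER4, was the only one called. Its level was low, at 0.287 and 0.597 CPM with vehicle and 1.73 and 2.13 CPM with EGF (2.05, SE 0.37, adjusted p = 0.00613), and its call was lost without EGF replicate 2 (adjusted p = 0.136) and without vehicle replicate 1 (adjusted p = 0.23). AREG, another EGFR ligand, stood at 1.15 and 1.1 CPM with vehicle and 2.44 and 2.41 CPM with EGF, with no overlap, but did not pass (1.11, SE 0.28, adjusted p = 0.109). CXCL8, a neutrophil chemokine, had 2 counts over both vehicle libraries and 80 over both EGF libraries, a ratio of 44.6 with a 95% counting interval of 11.9 to 374 (exact binomial, counting error only). Its level with EGF was only 1.31 and 1.77 CPM, and of the other 3 cytokine genes tested none was called. EDN1, which encodes the secreted peptide endothelin-1, went from 9.51 and 9.7 CPM to 27.9 and 34.4 CPM (1.70, SE 0.15, adjusted p = 2.63e-07).

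Of 14 genes for interferon regulatory factors, STATs and SOCS proteins, IRF1 alone was called. IRF1, a transcription factor known for its induction by interferon, stood at 1.74 and 1.85 CPM at T0, 1.97 and 3.55 CPM with vehicle and 14.8 and 11 CPM with EGF (2.18, SE 0.22, adjusted p = 1.7e-06). The lower EGF library was well above the higher vehicle library, although the replicates of each group differed visibly. IRF9 (0.52, adjusted p = 0.122) and the inhibitor SOCS3 (0.41, adjusted p = 0.959) did not pass. Of 11 genes of the NF-kB system 1 rose and 1 fell. NFKBIZ, a nuclear member of the inhibitor family, went from 6.39 and 6.59 CPM to 10.7 and 10.4 CPM (0.70, adjusted p = 0.0034), and NFKBIA, the inhibitor that holds NF-kB in the cytoplasm, from 66 and 65.4 CPM to 44.5 and 43.8 CPM (-0.57, SE 0.07, adjusted p = 2.03e-05). The call of NFKBIZ was lost without EGF replicate 1 or without either vehicle library (adjusted p of 0.0575 to 0.1), and that of NFKBIA under no alternative.

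RASD1, a RAS-related GTPase, had one of the larger changes, from 7.34 and 7.97 CPM to 35.1 and 42.1 CPM (2.33, SE 0.12, adjusted p = 4.84e-11). RHOB, a GTPase of endosomes and actin, changed less, from 751 and 783 CPM to 1239.5 and 1263 CPM (0.71, SE 0.06), and RGS16, which turns off heterotrimeric G proteins, had a log2 fold change of 0.83. ZFP36 (1.08, SE 0.08) and ZFP36L1 (0.59, SE 0.05), which bind AU-rich elements and speed the decay of mRNAs, both rose in edgeR, and DESeq2 called 4 of the 8 genes of their list. ID1, an inhibitor of basic helix-loop-helix factors, rose from 8.48 and 8.41 CPM to 14.1 and 14.4 CPM (0.75, adjusted p = 0.00372), and SKIL, a repressor of SMAD signalling, by 0.50, a call lost without either EGF library or without vehicle replicate 1 (adjusted p of 0.0909 to 0.451). In the remaining lists single genes rose: the survival gene MCL1 from 488 and 492 CPM to 742 and 803 CPM (0.66, SE 0.06), the insulin receptor substrate IRS2 from 24.3 and 27.6 CPM to 53.2 and 50.2 CPM (0.99, SE 0.09), cyclin E1 (CCNE1) by 0.59 and the receptor kinase EPHA2 by 0.79. EPHA2 was near the threshold (adjusted p = 0.0459) and lost its call in 7 of 13 alternatives, among them DESeq2 (adjusted p = 0.856) and leaving out any 1 of the 4 libraries. The calls of ID1 and CCNE1 were lost without any 1 of the 4 libraries (adjusted p of 0.0567 to 0.0847 and of 0.0568 to 0.514). CCND1 (0.14, adjusted p = 0.995) and CDKN1A (0.42, adjusted p = 0.93) did not pass. The 8 steroid receptor and luminal regulator genes gave 0 calls in either tool and 0 at an unadjusted p under 0.05, with ESR1 at 96.9 and 100.3 CPM and 95.8 and 104 CPM. The 10 stress response genes gave 0 calls in either tool, with 2 higher and 1 lower at an unadjusted p under 0.05. GDF15, a secreted stress-inducible member of the TGF-beta family, stood at 84.9 and 91.4 CPM with vehicle and 191 and 194 CPM with EGF, without overlap (1.13, SE 0.28, adjusted p = 0.0996), and was named after its values were seen.

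**Figure D2:**
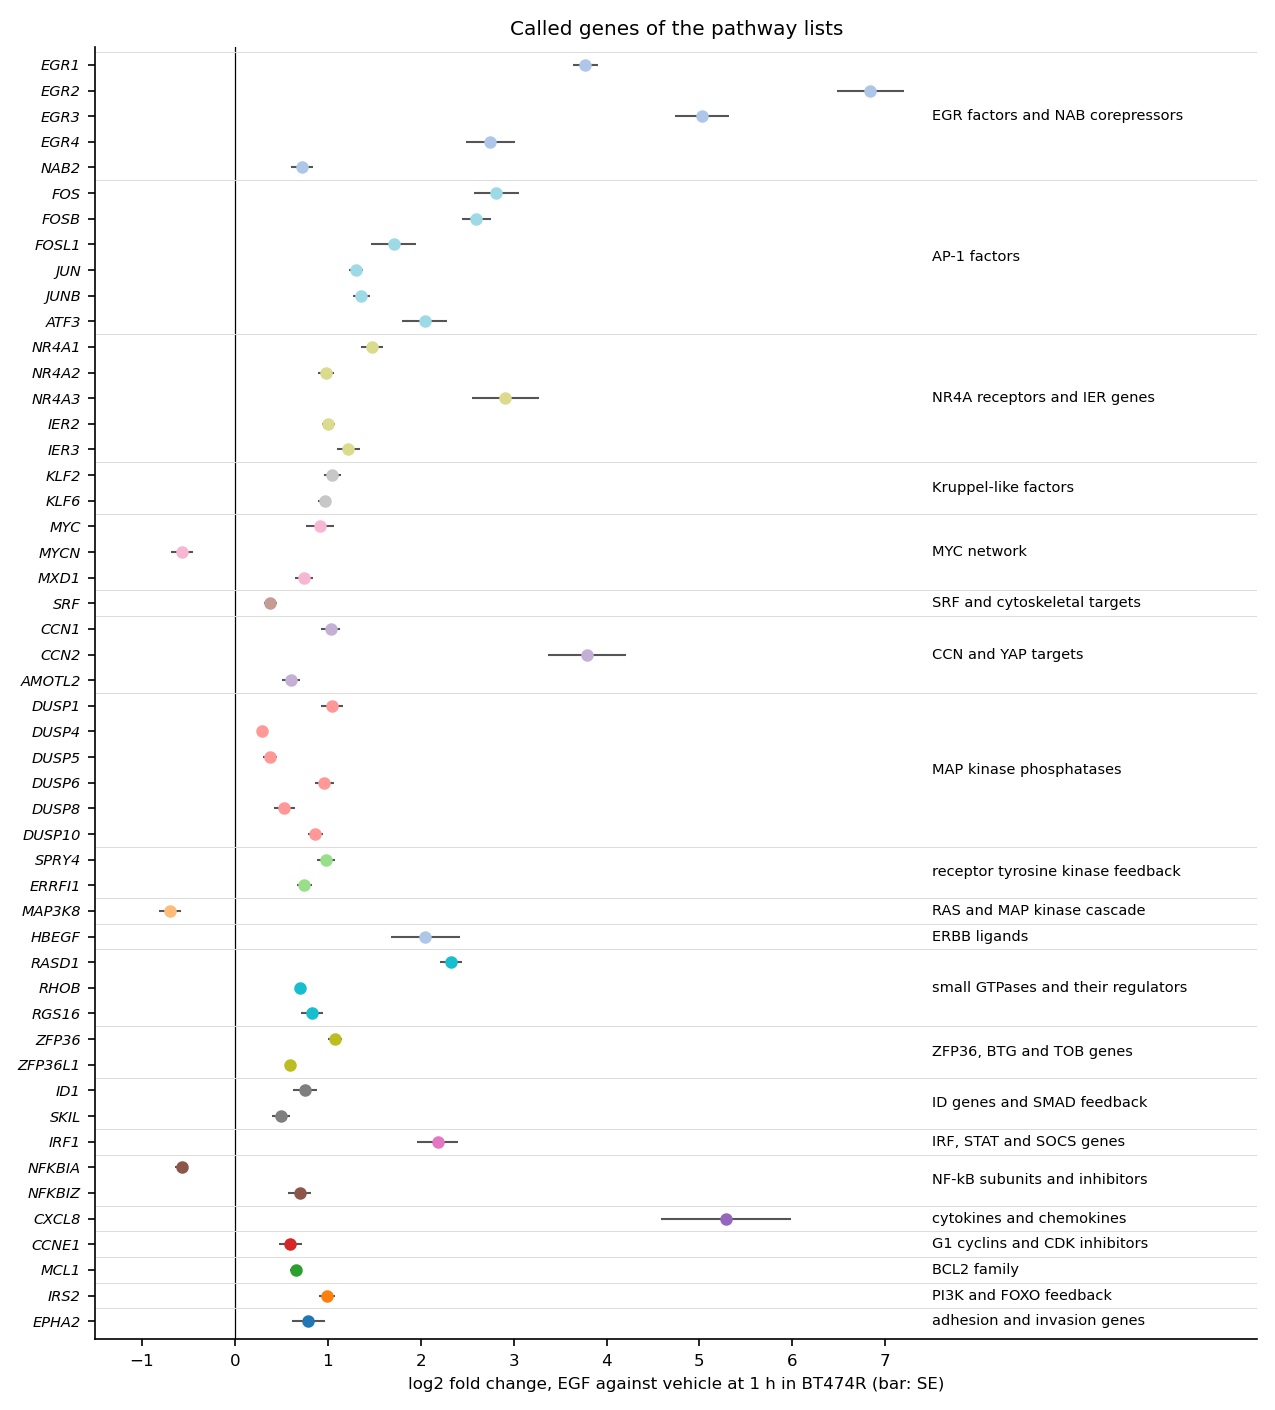
Log2 fold change of EGF against vehicle at 1 h in BT474R (horizontal axis, bars are 1 standard error) for the 50 called genes of the pathway lists, grouped by list. EGR2 at 6.84 and CXCL8 at 5.29 lie farthest to the right, and MYCN, MAP3K8 and NFKBIA lie to the left of 0.

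The plot of the called list genes shows 47 points to the right of 0 and 3 to the left. The EGR and AP-1 factors hold most of the points beyond 2.

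Of the 10 genes that fell, RBM20 changed most. This gene for a splicing factor known for its part in splicing of titin stood at 22.4 and 23.1 CPM at T0, 8.48 and 6.77 CPM with vehicle and 2.55 and 3.31 CPM with EGF, a fall without overlap (-1.37, SE 0.20, adjusted p = 0.000313). MAP3K8 went from 12.5 and 13.6 CPM to 7.66 and 8.48 CPM (-0.70, SE 0.12), the zinc-finger gene ZNF296 from 13.1 and 14 CPM to 8 and 8.99 CPM (-0.68) and GADD45A, a growth-arrest gene inducible by DNA damage, from 19.4 and 20.1 CPM to 14.6 and 13.5 CPM (-0.49). ARRDC3, an arrestin-domain adaptor, was at 38.8 and 40.3 CPM at T0, 21.4 and 18.7 CPM with vehicle and 13.8 and 14 CPM with EGF (-0.52). In RBM20 and ARRDC3 the T0 libraries were the highest of these 6 and the EGF libraries the lowest. The other falls were those of the uncharacterised LOC107984591 (-0.72), MYCN, NFKBIA, PACSIN1 (-0.51) and PRR15L (-0.28). Of the 10, RBM20 and NFKBIA were called under every alternative tried. The other 8 lost their calls when some of the 4 libraries were left out. MAP3K8 did so without EGF replicate 1 or vehicle replicate 2, ARRDC3 and PACSIN1 without any but vehicle replicate 2. The other 5 did so without any 1 of the 4, and LOC107984591 lost its call in 7 of 13 alternatives in all.

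EGF was next compared with HRG at the same time in the same line, although at a different concentration (50 against 10 ng/mL). A total of 12 genes (0.0494%) were higher with EGF than with HRG and 0 (0%) were lower in edgeR, with 419 genes lower at an unadjusted p under 0.05. DESeq2 called 13 and 0. The count was 23 without the HRG libraries at 24 h and 5 to 12 when 1 of the 4 libraries compared was left out. IRF1 stood out: its HRG libraries were at 2.63 and 2.83 CPM, within the range of the vehicle libraries, and EGF was higher by 2.24 on the log2 scale (SE 0.22, adjusted p = 1.58e-05). For the others HRG lay between vehicle and EGF. JUN was at 163 and 147 CPM with HRG against 301 and 315 CPM with EGF (0.99, SE 0.08, adjusted p = 3.87e-07), KLF2 at 62.2 and 55.7 CPM against 98.6 and 103 CPM (0.77, SE 0.09), KLF6 at 169.9 and 160.2 CPM against 262 and 267 CPM (0.68, SE 0.07) and RHOB at 920.5 and 861 CPM against 1239.5 and 1263 CPM (0.49, SE 0.06). These 5 genes were called under every alternative tried. The other 7 were DUSP1 (0.76), EGR1 (0.74), RASD1 (0.66), JUNB (0.51), ZFP36 (0.49), IER2 (0.39) and MYLIP (0.37), a ubiquitin ligase that targets the LDL receptor. Each of them lost its call when 1 of the 4 EGF and HRG libraries was left out, in every case among others without HRG replicate 2 (adjusted p of 0.338 to 1), and EGR1 was not called in DESeq2 (adjusted p = 0.54).

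Several genes with large changes were not called between the ligands. EGR2 was at 16.2 and 9.39 CPM with HRG against 15.1 and 17.7 CPM with EGF (0.35, SE 0.19), EGR3 at 34.9 and 21 CPM against 28 and 42 CPM (0.32, SE 0.19) and FOSB at 110.4 and 78.6 CPM against 106 and 144 CPM (0.40, SE 0.14). For these 3 genes the EGF and HRG libraries overlapped, and HRG replicate 1 lay above HRG replicate 2. The replicates of HRG at 1 h differed more than those of EGF or vehicle at 1 h. A missing call therefore does not show equal effects of the ligands. DUSP6 (0.21, SE 0.10) and SPRY4 (0.20, SE 0.09) were also not called, and FOS had a difference of 0.88 with an SE of 0.21 (adjusted p = 0.375). Against the shared vehicle libraries, 41 genes (0.169%) were higher with HRG and 0 (0%) lower in edgeR, with 385 lower at an unadjusted p under 0.05 and 1 lower in DESeq2.

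**Figure D3:**
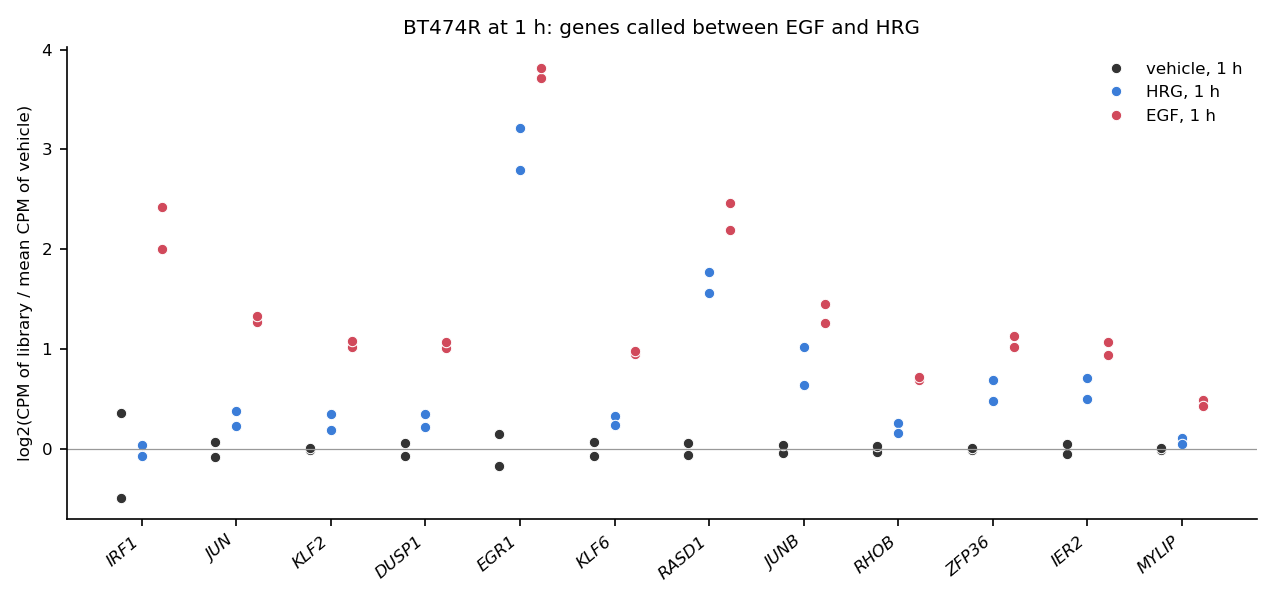
Log2 of each library's CPM over the mean of the 2 vehicle libraries (vertical axis) for the 12 genes called between EGF and HRG at 1 h in BT474R, with points for vehicle, HRG and EGF libraries. The HRG points of IRF1 lie among the vehicle points, and both of its EGF points lie above all of them.

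In the plot of the 12 genes the EGF libraries lie above the HRG libraries for every gene, which their choice by that comparison fixes, and the gap is widest for IRF1.

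To ask how the response of the resistant line differed from that of its parent, the effect of EGF at 1 h was compared between BT474R and BT474 in a model of all 40 libraries. Most genes that rose in BT474R also rose in BT474: 89 of the 101 (88.1%) were called higher there too, which was 21.4% of the 416 genes (1.65%) called higher in BT474. Of the 10 that fell, 7 were among the 134 genes (0.533%) called lower in BT474. The median log2 fold change of the 101 genes was 0.75 in BT474R and 0.90 in BT474. The difference of the effects, BT474R minus BT474, was called for 34 of 24641 genes (0.138%). It was negative for 33 of them (0.134%) and positive for 1, IRF1 (0.00406%). A negative difference can be a weaker rise or a fall in BT474R, and does not by itself mean a lower level with EGF there. The 34 became 63 without the HRG libraries at 24 h, 178 with only the 8 libraries compared and 16 to 26 when 1 of these was left out.

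IRF1 differed by 2.14 on the log2 scale (SE 0.26, adjusted p = 3.9e-06). On the scale of the model of both lines, its libraries were at 7.1 and 7.61 CPM with vehicle and 8.04 and 7.06 CPM with EGF in BT474, and at 2.03 and 3.69 CPM with vehicle and 15.3 and 11.4 CPM with EGF in BT474R. The 2 lines thus differed in their vehicle libraries as well, where BT474R was the lower, and with EGF BT474R was the higher. No EGF effect was called in BT474 (0.01, SE 0.12).

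Of the 33 negative differences, 15 were of genes called higher in both lines. Another 17 were of genes called higher in BT474 but not in BT474R. The last was GADD45A, which fell in BT474R and was not called in BT474. RASD1 had the largest of these differences (-2.48, SE 0.19, adjusted p = 6.31e-11): it was at 2.93 and 1.72 CPM with vehicle and 60.8 and 68.5 CPM with EGF in BT474, and at 7.57 and 8.27 CPM and 36.3 and 43.5 CPM in BT474R. Its vehicle level was thus the higher in BT474R and its level with EGF the lower. CCN1 followed (-1.81, SE 0.12, adjusted p = 2.63e-12), with 238 and 229 CPM with EGF in BT474 against 45.9 and 51.8 CPM in BT474R, from vehicle levels of 32.7 and 32.2 CPM and 23.4 and 24.3 CPM. EDN1 (-1.26, SE 0.19), PTGER4, a prostaglandin E2 receptor (-1.25, SE 0.17), ADAMTS1, a secreted metalloprotease (-1.21, SE 0.14), and DUSP5 (-0.91, SE 0.14) came next among those called under every alternative. With EGF, PTGER4 was at 18.2 and 18.8 CPM in BT474R and 18 and 20.9 CPM in BT474. Its vehicle levels were 13.2 and 12.7 CPM and 6.27 and 5.21 CPM. DUSP5 was at 25.7 and 27 CPM and 26.1 and 25.2 CPM with EGF. Its vehicle levels were 20.4 and 20.3 CPM and 9.94 and 11.1 CPM. Both genes thus had like levels with EGF and a higher vehicle level in BT474R. EDN1 was lower with EGF in BT474R (28.9 and 35.6 CPM against 57.2 and 65.5 CPM). JUN differed by -0.73 (SE 0.10), reaching 464 and 479.8 CPM with EGF in BT474 and 311 and 326 CPM in BT474R. ADAMTS1 was at 8.37 and 7.9 CPM with vehicle and 8.01 and 9.26 CPM with EGF in BT474R, where no change was called, and at 14.7 and 14.6 CPM and 35.7 and 36.6 CPM in BT474.

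Of the 32 called genes that are not copies, 14 kept their call under every alternative: IRF1, RASD1, CCN1, EDN1, PTGER4, ADAMTS1, DUSP5, JUN, THBS1 (-0.71), NEDD9 (-0.79), ITPRIP (-0.71), TP53INP2 (-0.66), VMP1 (-0.61) and TUFT1 (-0.60), of which JUN and the last 6 were named for this after their values were seen. FOS, with a difference of -1.34 (SE 0.28, adjusted p = 0.0276), is not among them: it was not called in DESeq2 (adjusted p = 0.52) nor without any 1 of the 8 libraries compared (adjusted p of 0.0613 to 0.404). The calls of MAFF, NR4A1 and CSRNP1 were lost in 8, 10 and 12 of 16 alternatives. EGR1 differed by -0.0013 (SE 0.19), FOSB by -0.57 (adjusted p = 0.579), EGR3 by 1.48 (adjusted p = 0.0965) and DUSP6 by 0.25 (adjusted p = 0.851), none of which was called. The spread of the libraries was wider in BT474R than in BT474, with common dispersions of 0.00300 and 0.00121, and the counts of called genes in the 2 lines are therefore no comparison of their responses.

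**Figure D4:**
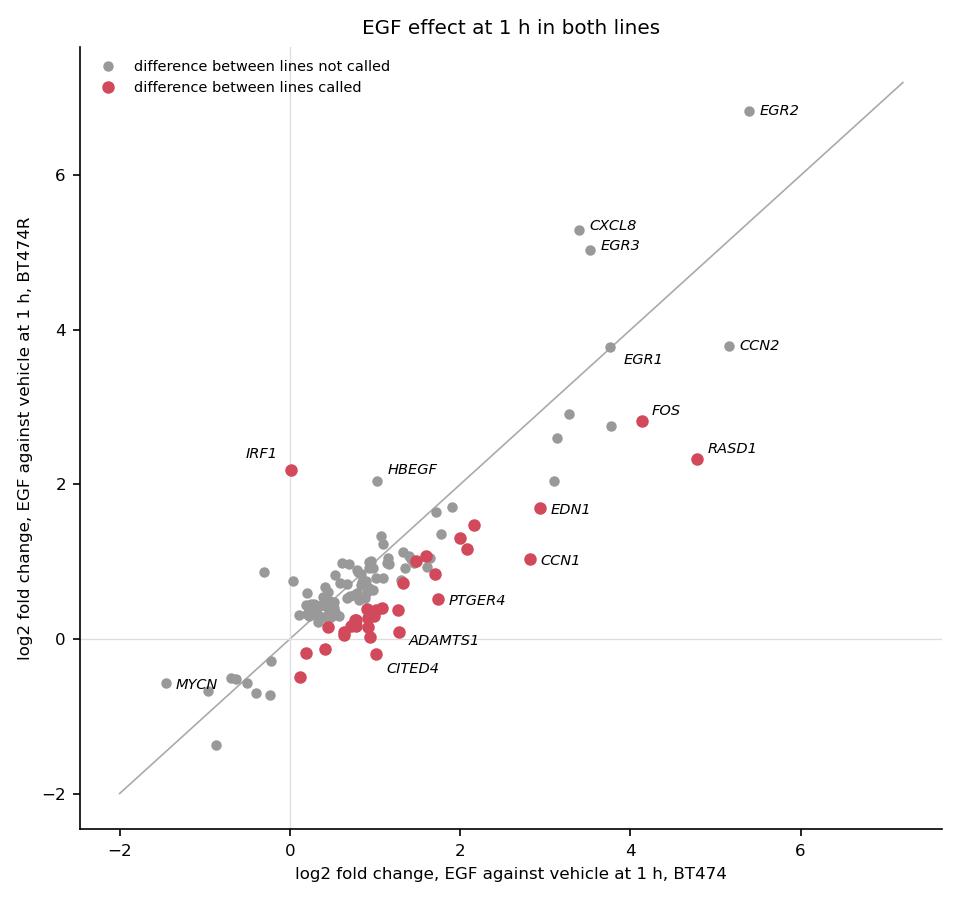
Log2 fold change of EGF against vehicle at 1 h in BT474 (horizontal axis) and BT474R (vertical axis), 1 point for each gene called in BT474R or between the lines, with the line of equal change. Points called between the lines are red. IRF1 is the only red point above the line, and RASD1 and CCN1 lie farthest below it among the red points.

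In the plot of both lines the points called between them are all to the right of the line of equal change except IRF1, and EGR1 lies on that line.

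The later time points have EGF and vehicle libraries of their own. Of the 101 genes higher at 1 h, 58 (57.4%) were also higher at 12 h, where 1664 genes (6.85%) were called higher, and 68 (67.3%) at 24 h, where 2417 (9.95%) were. These are 3.49% and 2.81% of the genes called higher at those times. A total of 51 were called at both, 7 at 12 h alone, 17 at 24 h alone and 26 at neither. The median log2 fold change of the 101 genes was 0.75 at 1 h, 0.47 at 12 h and 0.51 at 24 h.

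Among the 26 genes not called higher at 12 h or 24 h were EGR2, EGR3, FOSB, NR4A1, NR4A3, CCN1, CCN2, EDN1, NAB2, DUSP1 and MCL1. CCN2 was below the detection limit at 12 h and 24 h, with 0.0383 and 0.0451 CPM with EGF and 0 with vehicle at 12 h. Its effect at those times could not be judged. EGR2 had 1 count in each T0 library and EGR3 had 0. For genes this low without EGF, a missing call does not show that an effect had ended. FOSB was at 0.804 and 0.541 CPM with EGF and 0.647 and 0.728 CPM with vehicle at 12 h, levels under those of the vehicle libraries at 1 h. NR4A1 was at 29.8 and 28 CPM and 25.6 and 30.9 CPM (0.03, SE 0.14). EGR1 was at 7.85 and 5.41 CPM and 6.25 and 5.49 CPM at 12 h (0.20, SE 0.21) and was called again at 24 h with a small change (0.69, SE 0.21, adjusted p = 0.0226). The effect of EGF differed between 12 h and 1 h for 1075 genes (4.43%). That on EGR1 was smaller at 12 h than at 1 h by 3.57 on the log2 scale (adjusted p = 1.42e-08), in a test that shares the 1 h libraries by which the gene was chosen. For FOSB, NR4A1 and EGR1 the levels were lower at 12 h than at 1 h with vehicle as well as with EGF. Among the genes higher at 1 h, 3 were lower with EGF at 24 h: DUSP1 (-0.38, adjusted p = 0.0427), GATA6 (-0.40) and the kinase gene PIM3 (-0.39), the last 2 named after their values were seen.

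Other genes kept or widened their distance from vehicle. DUSP6 stood at 509 and 491 CPM with EGF and 91 and 93.2 CPM with vehicle at 12 h (2.44, SE 0.11), and at 511 and 506 CPM and 57 and 58.3 CPM at 24 h (3.14, SE 0.11). SPRY4 had log2 fold changes of 1.56 and 2.05 at these times, ERRFI1 of 1.14 and 1.80, IRS2 of 1.70 and 1.37 and ID1 of 1.66 and 1.97. IRF1 was at 19.1 and 13.6 CPM with EGF and 1.42 and 2.25 CPM with vehicle at 12 h (3.13, SE 0.23) and at 15.2 and 13.8 CPM and 1.48 and 2.35 CPM at 24 h (2.94, SE 0.24), so that its EGF libraries stayed between 11.0 and 19.1 CPM at all 3 times. MYC peaked in fold change at 12 h (2.02, SE 0.18, against 1.09 at 24 h), with levels of 11.8 and 10.6 CPM with EGF that were lower than at 1 h. FOS was called at all 3 times, with 6.24 and 4.19 CPM at 12 h and 13 and 15.5 CPM at 24 h. HBEGF and FOSL1 stayed higher with EGF, with 3.02 and 2.21 at 12 h, at levels of under 2 CPM for HBEGF at 12 h and 24 h.

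Of the 10 genes lower at 1 h, 4 were also lower at 12 h, where 1246 genes (5.13%) were called lower, and 6 at 24 h, where 1791 (7.37%) were. RBM20 stayed lower at both (-1.64 and -1.64). MYCN turned: it was higher with EGF at 12 h (22 and 21.3 CPM against 14.6 and 15.7 CPM, 0.51, SE 0.11, adjusted p = 0.00236) and at 24 h (23.6 and 22.1 CPM against 10.5 and 14.6 CPM, 0.87, SE 0.11). ARRDC3 was higher at 24 h (0.48, adjusted p = 0.000304).

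**Figure D5:**
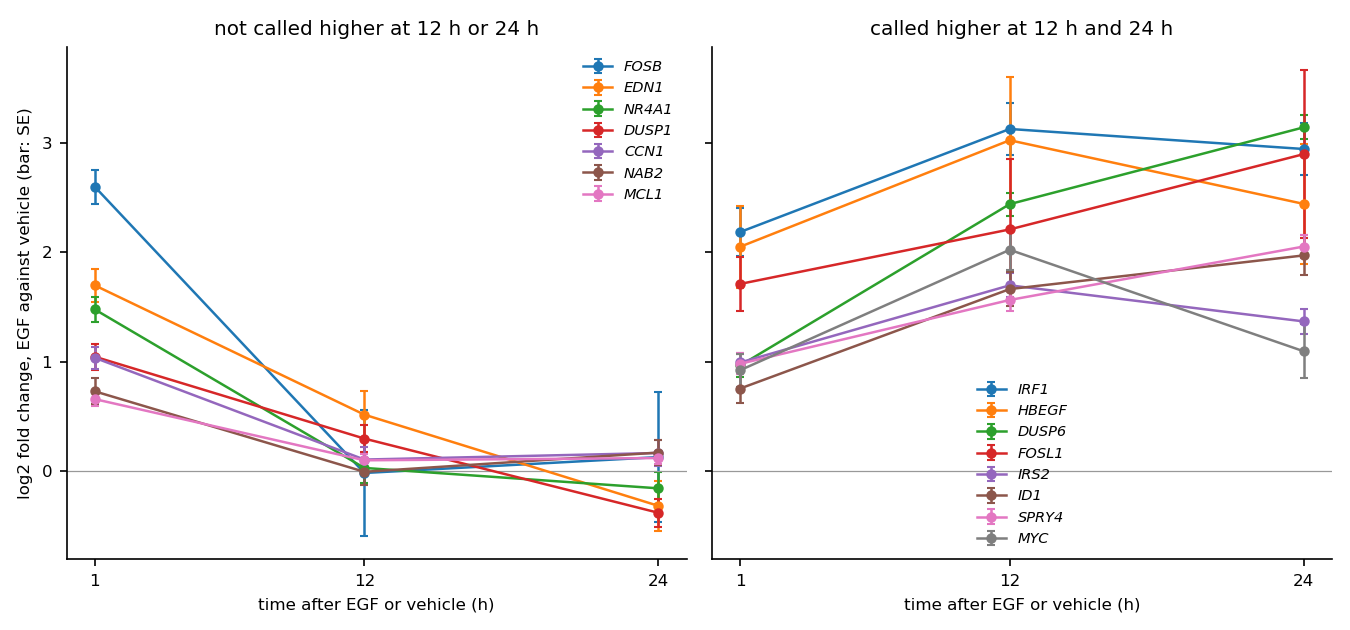
Log2 fold change of EGF against vehicle of the same time (vertical axis, bars are 1 standard error) at 1, 12 and 24 h (horizontal axis) in BT474R, for 7 genes not called higher at 12 h or 24 h (left) and 8 called higher at both (right). The genes on the left lie between -0.38 and 0.51 at 12 h and 24 h, and DUSP6 on the right goes from 0.96 at 1 h to 3.14 at 24 h.

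In the plot over time the genes on the left lie nearer to 0 at 12 h than at 1 h, while those on the right stay above 0 at every time. The genes were picked and sorted by these same calls. This fixes the place of those on the right and favours that of those on the left. The vehicle levels of several of these genes also moved over time, so that a fold change at a later time is not set against the level of vehicle at 1 h.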

How the data were processed

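RNA was sequenced from 40 libraries of BT474 and BT474R, 2 for each of 20 groups. The authors deposited 1 table of raw counts per gene, and per the labels they used Trim Galore 0.6.6, FastQC, MultiQC and featureCounts with GRCh38.p13. The annotation release and the strand setting are not given in the sources used here. Rows that repeat a gene name with a number are copies, among which reads may be split.

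Genes with a count of 1 or more in 50% or more of a fit's libraries were kept, scaled by TMM and tested with edgeR 4.0.16 (limma 3.58.1, R 4.3.3), by the quasi-likelihood F test with Benjamini-Hochberg adjustment at 0.05. All 20 libraries of a line were fitted together, and all 40 for the difference between lines. Each SE (standard error in the captions) is the absolute log2 fold change divided by the square root of F. DESeq2 1.42.0 was an alternative, and edgeR's test of EGF against vehicle was checked on simulated counts. These gave each gene the same spread in every group, whereas the real groups differed in spread. Library totals of the 4 compared libraries ran from 24028440 to 33387936 counts. The text names the 20 largest rises and every fall at a mean of 1 CPM or more without overlap of libraries, every called list gene with members that define a list, and up to 10 genes per direction between ligands and between lines. Genes named beyond this were chosen after their values were seen. The members and lists were chosen with earlier results of these data known. Promoters are those of RefSeq for GRCh38.p14, the first listed for each gene. Same-numbered replicates were checked for pairing, and the other alternatives are given in the closing section.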

Additional observations from a re-analysis of the deposited data

Results flagged for a closer look

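The effect of EGF at 1 h differed between BT474R and BT474 for 34 genes, by edgeR's quasi-likelihood F test of that difference itself in a model of all 40 libraries. IRF1 was the gene with a positive difference, BT474R minus BT474 (2.14 on the log2 scale). The largest differences in the other direction were those of RASD1 (-2.48), CCN1 (-1.81), FOS (-1.34), EDN1 (-1.26), PTGER4 (-1.25), CITED4 (-1.23), ADAMTS1 (-1.21), ZNF850 (-0.94), MAFF (-0.93) and DUSP5 (-0.91). The call of FOS was lost without any 1 of the 8 libraries and in DESeq2, those of CITED4, ZNF850 and MAFF without some of the 8, and those of the other 7 were kept in each of these. BT474R is 1 clone, so that line and clone cannot be told apart.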

How the results depend on the processing

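The 101 higher and 10 lower genes became 195 and 31 with no filter on low counts and 234 and 45 with only the libraries of the groups compared, and 157 and 20 without the HRG libraries at 24 h, an alternative chosen after seeing the data. With both lines in 1 fit 19 genes were lower. Leaving out 1 library gave 60 to 68 higher and 2 to 6 lower. The 12 genes between EGF and HRG became 48 with no filter, 22 with both lines and 23 without HRG at 24 h, and 5 to 12 with 1 library left out. The 34 genes between lines became 130, 178 with only the libraries compared and 63, and 16 to 26. The 1075 genes whose effect differed between 12 h and 1 h became 2752 with only the libraries compared, 1688 without HRG at 24 h and 618 to 749. The 89 genes shared with BT474 became 154, 136, 140 and 58 to 87, the 58 shared with 12 h became 123, 152, 90 and 37 to 56, and the 68 shared with 24 h became 137, 127, 104 and 44 to 63, in the order no filter, only the libraries compared, without HRG at 24 h and 1 library left out. The causes were not tested beyond the smaller or larger sets of libraries and genes. Of 60 named genes 39 kept their call under all 13 alternatives and 0 reversed. Same-numbered EGF and vehicle libraries did not deviate together (r = -0.0896 over 14704 genes). With 1 difference between replicates per group, this cannot show whether same-numbered libraries shared a culture or a day. The replicate block gave 113 higher and 12 lower, 13 between ligands, 39 between lines and 1161 between times, with 100, 65 and 75 shared. With the numbers of HRG crossed (r = -0.110, chosen after seeing the data), 12 genes were called between the ligands. Counts limit the genes near 3 counts, such as CXCL8 with vehicle.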

Other observations

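Among the genes that rose and belong to none of the lists, several encode transcription factors, ligands and regulators of translation, and they are named here after their values were seen. DKK1, a secreted inhibitor of WNT signalling, stood at 28.1 and 29.2 CPM with vehicle and 53.3 and 67.8 CPM with EGF (log2 fold change 1.08, SE 0.12, edgeR adjusted p = 1.17e-05), and NOG, which binds bone morphogenetic proteins, at 6.6 and 7.19 CPM and 13.3 and 11.9 CPM (0.87, adjusted p = 0.0245). The EGF effect on NOG was -0.31 in BT474 (not called), the difference between the lines was not called either (1.15, SE 0.41, adjusted p = 0.608), and NOG was higher at 12 h (1.59) and 24 h (2.10) in BT474R. TRIB1, a pseudokinase, went from 74.6 and 87.6 CPM to 147 and 161 CPM (0.92), PLK2, a polo-like kinase, from 514 and 512 CPM to 879 and 885 CPM (0.78, SE 0.07), and PPP1R15A, which directs the dephosphorylation of the translation factor eIF2, from 33.4 and 38.5 CPM to 61.9 and 60.5 CPM (0.76). Smaller changes were seen for ETS2 (0.68), the aryl hydrocarbon receptor AHR (0.43) and the epithelial factor ELF3 (0.46). The NOTCH target HES1 (0.41) and the clock gene PER2 (0.40) also changed less. Their EGF and vehicle libraries did not overlap, as for all 111 called genes and 38.9% of all genes.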
